A study of Mus musculus with 79 samples.

Results

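Nuclear RNA of the wild-type clone G4 of mouse E14 embryonic stem cells was compared between 48 h and 24 h of treatment with 1 µM retinoic acid. The 4 libraries, 2 at 48 h and 2 at 24 h, were taken by their labels out of 79 libraries in the whole study, 42 of which share a table with G4. G4 carries the label E14-HoxTransE-WT (genotype E14;HoxTransEwt) and is a single clone that keeps an enhancer of the Hoxb locus. That enhancer was removed in the clones E3 and H12 (E14-HoxTransE-KO, genotype E14;HoxTransEdel), for which nuclear RNA is at hand with 2 libraries at 48 h and 2 at 24 h each. Total RNA of wild-type E14 cells (genotype wildtype) covers the same step with 4 libraries at 48 h and 3 at 24 h. All of these cells were kept on gelatin in serum and LIF before treatment, and whether LIF stayed in the medium with retinoic acid is not given in the sources used here. The labels do not say that the 2 libraries of a G4 time came from separate cultures, so p-values measure the spread between libraries, which may be technical.

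Retinoic acid enters the nucleus and binds RAR-RXR receptor pairs that sit on DNA, and target genes are then transcribed, the Hox clusters and the enzymes that clear retinoic acid among them. Embryonic stem cells are held in a self-renewing state by Pou5f1, Sox2, Nanog and their partners, together with LIF, Nodal and FGF signals, and they leave this state under retinoic acid mainly towards neural and extraembryonic fates. Hox genes lie in 4 clusters and tend to be activated in the order of their position, from the 3′ to the 5′ end of a cluster.

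The libraries held 10448512 and 6691768 reads at 48 h, against 6719344 and 6122133 reads at 24 h, counted over 1 transcript for each gene. Reads over introns count towards a gene in this table, so the values describe unspliced as well as spliced nuclear RNA. Replicates correlated at r = 0.9928 at 48 h and 0.9884 at 24 h over genes on the log2 scale. Levels are given as CPM, reads scaled to a common library total, in the order replicate 1 and replicate 2. Genes were called where the adjusted p of edgeR's quasi-likelihood test (Benjamini-Hochberg) lay below 0.05, with the spread taken from all 42 libraries of the table. The fold change is the fitted one, 48 h over 24 h. In bulk RNA, fewer cells of a type and less RNA per cell cannot be told apart.

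Between 24 h and 48 h of retinoic acid most of the stem-cell genes examined fell, while nearly all tested Hoxc and Hoxd genes and many neural patterning, BMP pathway, imprinted and stromal genes rose. Of 15896 genes tested, 3107 (19.5%) were called, with 1541 higher (9.69%) and 1566 lower (9.85%) at 48 h. Calls of at least 2-fold numbered 773 up (4.86%) and 882 down (5.55%). The median log2 fold change of all genes tested was 0.01, with quartiles at -0.31 and 0.31. Leaving out any 1 of the 4 libraries left fewer calls, 1926 without 48 h replicate 1, 1967 without 48 h replicate 2 and 1722 without 24 h replicate 2. For this reason counts of list members are given below with the library whose removal moved them by more than 1.5 times. Genes that rose at least 2-fold had longer spans (median 38.4 kb) than those that fell as much (24.0 kb) and than all genes tested (22.4 kb).

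**Figure D1:**
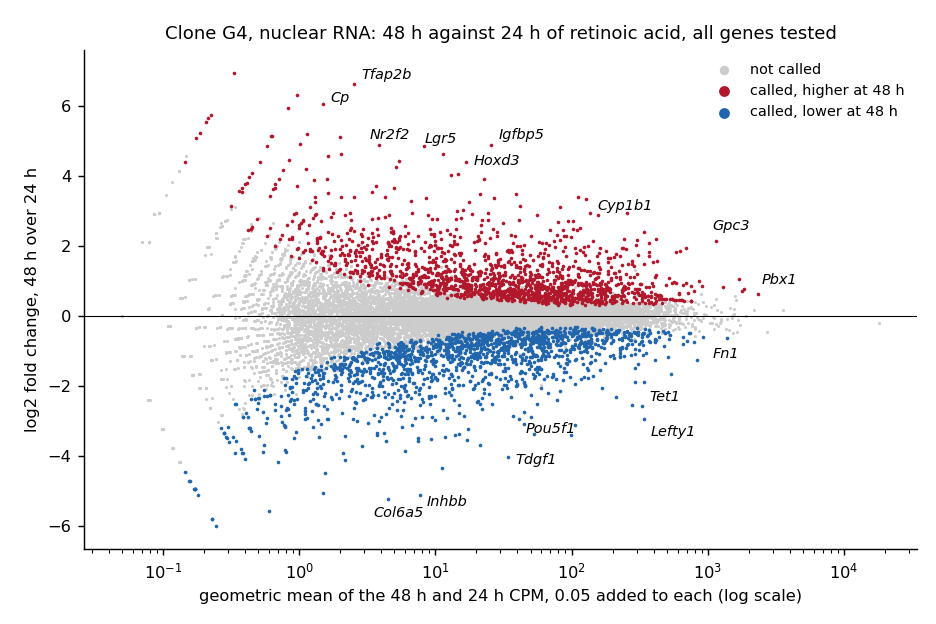
Each point is 1 of the 15896 genes tested in clone G4; the horizontal axis is the geometric mean of the 48 h and 24 h CPM (log scale) and the vertical axis the log2 fold change, 48 h over 24 h. Red points are the 1541 genes called higher and blue points the 1566 called lower at 48 h, and calls occur over the whole range of levels.

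The steepest rises joined transcription factors of the neural tube and neural crest with genes of retinoid and growth-factor signalling. Tfap2b (chr1:19208914-19238845, build mm10), a neural crest and ectoderm transcription factor, had 28.1 and 19.1 CPM at 48 h against 0.432 and 0.0 CPM at 24 h. Only a few reads were present at 24 h, and the reads at 48 h were 109-fold higher (95% interval of the counts 37.2 to 532, counting error only; adjusted p = 2.63e-09). Igfbp5 (chr1:72858065-72874865), a secreted protein that binds insulin-like growth factors, had 157.9 and 121.5 CPM at 48 h against 6.77 and 2.5 CPM at 24 h, a log2 fold change of 4.89 ± 0.31 (SE, adjusted p = 1.28e-12). Nr2f2, an orphan nuclear receptor also called COUP-TFII, reached 45.9 and 42.2 CPM at 48 h against 1.58 and 1.4 CPM at 24 h, 29.1-fold higher (log2 4.86 ± 0.25, adjusted p = 4.85e-15). In each of these genes both 48 h libraries lay above both 24 h libraries, which was a condition for naming the steepest changes.

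Lgr5, a receptor for R-spondins that strengthens Wnt signals, had 57.6 and 54.9 CPM at 48 h against 2.59 and 1.87 CPM at 24 h (log2 4.64 ± 0.30, adjusted p = 1.28e-12). The retinaldehyde dehydrogenase Aldh1a1 had 7.2 and 7.65 CPM at 48 h against 0.144 and 0.0 CPM at 24 h, 98.5-fold more reads (interval 17.4 to 3920, adjusted p = 1.56e-07). Its neighbour Aldh1a7 on chromosome 19 had 23.7 and 16.6 CPM at 48 h against 0.72 and 0.624 CPM at 24 h (log2 4.88 ± 0.45, adjusted p = 3.53e-09). The 2 genes are close copies, so reads may be split between them. Others among the 12 steepest rises were the copper carrier Cp, whose span meets Hps3 on the other strand, the neural tube factor Prdm13, Plppr5, Vit and the unnamed locus Gm29683.

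Among genes with the most reads, which favours long genes, the rises of Gpc3, Gpc6 and Grb10 kept their call under every alternative tried. Gpc3, a heparan sulphate glypican that binds growth factors, had 2317.6 and 2503.2 CPM at 48 h against 579.7 and 509.8 CPM at 24 h, 4.42-fold higher (log2 2.15 ± 0.20, adjusted p = 1.35e-09). Gpc6, its relative on chromosome 14, had 2429.5 and 2432.6 CPM at 48 h against 1260.0 and 1078.4 CPM at 24 h (log2 1.06 ± 0.23, adjusted p = 0.00106). The imprinted adaptor gene Grb10 had 2408.2 and 2363.8 CPM at 48 h against 1498.6 and 1318.8 CPM at 24 h (log2 0.76 ± 0.16, adjusted p = 0.000829). These 3 genes thus changed by less in fold than the steepest rises but by far more reads.

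The steepest falls included a secreted activin subunit, a collagen chain and a pair of adhesion proteins. Inhbb (chr1:119415465-119422248), the beta B subunit of activin, had 0.96 and 1.62 CPM at 48 h against 44.1 and 43.4 CPM at 24 h, 35.1-fold lower (log2 -5.13 ± 0.49, adjusted p = 1.02e-08). Col6a5, a collagen VI chain, had 0.672 and 0.736 CPM at 48 h against 19.7 and 34.0 CPM at 24 h (log2 -5.23 ± 0.45, adjusted p = 4.75e-10). Nphs1, which encodes the slit-diaphragm protein nephrin and overlaps Nphs1os on the other strand, had 2.78 and 2.06 CPM at 48 h against 54.9 and 46.3 CPM at 24 h (log2 -4.34 ± 0.37, adjusted p = 8.99e-10). Its neighbour Kirrel2, a nephrin-like adhesion protein, had 0.768 and 0.147 CPM at 48 h against 9.51 and 9.05 CPM at 24 h (log2 -4.12 ± 0.38, adjusted p = 1.89e-09). Cdk15, Lrrc2, Srms, Hsd17b14, Gjb1, Dgkb and Aoah fell by 12-fold to 33.8-fold.

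Most stem-cell genes fell. Of 16 genes of the naive state, 15 fell and Dppa3 alone was not called, and their median log2 fold change was -1.60, against 0.01 for all genes. The summed level of the 16 genes was 356.3 and 294.9 CPM at 48 h against 1125.5 and 859.1 CPM at 24 h. Leaving out 1 library at a time left 10 to 14 of these falls. Of 14 genes of general pluripotency 10 fell and none rose (median -1.60), and the same number fell with any of the 4 libraries left out. The members of this list that were not called were Sox2, Sall4, Lin28a and Lin28b.

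Pou5f1 (chr17:35506032-35510777), the POU factor Oct4 on which pluripotency depends, had 14.2 and 15.3 CPM at 48 h against 110.5 and 115.3 CPM at 24 h. It was 7.66-fold lower at 48 h (log2 -2.94 ± 0.22, adjusted p = 2.79e-11). Sox2, its partner that neural progenitors also use, had 75.3 and 63.4 CPM at 48 h against 107.9 and 83.8 CPM at 24 h (log2 -0.46 ± 0.21, adjusted p = 0.117). The libraries of the 2 times did not overlap for Sox2, but neither did those of 61.8% of all genes tested (30.1% lower and 31.7% higher at 48 h).

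Nanog, the homeodomain factor of the naive state, had 28.4 and 19.6 CPM at 48 h against 72.9 and 53.5 CPM at 24 h (log2 -1.38 ± 0.46, adjusted p = 0.0348). Its call was lost with any 1 of the 4 libraries left out (adjusted p = 0.0827 without 48 h replicate 1, 0.225 without 48 h replicate 2, 0.204 without 24 h replicate 1 and 0.0612 without 24 h replicate 2), and with DESeq2 (0.0629), limma (0.0973) and no filter on low counts (0.0664). Esrrb, an orphan nuclear receptor of the naive network, had 40.6 and 21 CPM at 48 h against 180.5 and 106.2 CPM at 24 h (log2 -2.20 ± 0.39, adjusted p = 0.000178). Zfp42, the widely used marker Rex1, had 31.8 and 31.9 CPM at 48 h against 108.5 and 84.7 CPM at 24 h (log2 -1.60 ± 0.33, adjusted p = 0.00082). Larger falls belonged to Tcl1, a coactivator of Akt kinase, at 11.1-fold, and to the nuclear receptor Nr0b1 at 10.2-fold.

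In the general list the steepest falls were in genes that act in signalling and metabolism as well as in transcription. Tdgf1 (Cripto), the co-receptor of Nodal, had 10.8 and 5.74 CPM at 48 h against 135.4 and 142.6 CPM at 24 h, 16.3-fold lower (log2 -4.03 ± 0.49, adjusted p = 9.52e-07). Tdh, the threonine dehydrogenase that mouse embryonic stem cells need, had 3.26 and 0.883 CPM at 48 h against 33.6 and 17.8 CPM at 24 h (log2 -3.49 ± 0.39, adjusted p = 1.41e-07). Utf1, a chromatin protein of these cells, was 9.47-fold lower, and L1td1, an RNA-binding protein derived from a LINE element, was 8.46-fold lower. Each of these genes had both 48 h libraries below both 24 h libraries, as did 30.1% of all genes tested.

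Genes of the formative state, which precedes germ layer choice, fell too, 8 of 11 (median -1.03), and 5 fell without 48 h replicate 2 and 5 without 24 h replicate 2. The 1 gene that rose, Sox3, lost its call without either 48 h library and without 24 h replicate 2. Pou3f1 (Oct6) had 5.76 and 5.74 CPM at 48 h against 27.9 and 19.8 CPM at 24 h (log2 -2.05 ± 0.32, adjusted p = 1.26e-05). Lef1, a Wnt-responsive factor, had 23.2 and 22.8 CPM at 48 h against 63.1 and 96.9 CPM at 24 h (log2 -1.79 ± 0.24, adjusted p = 1.93e-06). Fgf5, the usual marker of this state, stayed low, at 2.78 and 1.62 CPM at 48 h against 2.16 and 3.28 CPM at 24 h (adjusted p = 0.821). Of 10 genes of LIF and STAT3 signalling 2 were lower and 1 higher, with 1 lower without 48 h replicate 2 and none higher without 24 h replicate 2.

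Reads over the microRNA loci of stem cells were lower as well. The list of these loci was drawn up after their values had been seen. All 7 hairpins of the miR-290 cluster on chromosome 7 had lower values at 48 h, of which Mir290a, Mir291b and Mir293 were called, and the sum over the hairpins was 12.3 and 9.86 CPM at 48 h against 30.5 and 28.9 CPM at 24 h. The call of Mir290a was lost without 24 h replicate 1 (adjusted p = 0.0565) and without 48 h replicate 2 (0.0844). Mir291b had 3.94 and 3.24 CPM at 48 h against 10.2 and 10.8 CPM at 24 h (log2 -1.53 ± 0.32, adjusted p = 0.000704). Libraries of this kind hold the long primary transcript and not the mature microRNA, and most of these hairpins lie inside D7Ertd143e on the same strand. In the miR-17-92 cluster on chromosome 14 the values of all 7 loci were higher, 2 of them called, or 1 without 48 h replicate 1 or without 24 h replicate 2. The host transcript Mir17hg had 51.5 and 53.6 CPM at 48 h against 26.1 and 31.5 CPM at 24 h (log2 0.87 ± 0.18, adjusted p = 0.000591). Selected mature sequences of both clusters from RefSeq, build GRCm38.p6, are written 5′ to 3′ with the seed (bases 2 to 8) in capitals, to show which members share one. The first 3 share a seed and lie in the miR-290 cluster, as does the fourth, which has another seed, and the last 2 lie in the miR-17-92 cluster and share a seed with each other.
mmu-miR-291a-3p: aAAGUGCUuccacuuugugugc
mmu-miR-294-3p: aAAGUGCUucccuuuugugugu
mmu-miR-295-3p: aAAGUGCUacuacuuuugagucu
mmu-miR-291b-3p: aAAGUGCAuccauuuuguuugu
mmu-miR-17-5p: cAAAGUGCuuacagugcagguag
mmu-miR-20a-5p: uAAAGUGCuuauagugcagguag

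Some ligands of the Nodal and FGF pathways, both of which act on pluripotent cells, were among the genes that fell. The FGF ligand gene Fgf9 was called higher instead, with a log2 fold change of 2.12. Nodal itself had 40.3 and 37.4 CPM at 48 h against 171.1 and 172.5 CPM at 24 h (log2 -2.14 ± 0.40, adjusted p = 0.000237). Its secreted antagonist Lefty1 had 142.6 and 99.2 CPM at 48 h against 1005.4 and 879.5 CPM at 24 h (log2 -2.96 ± 0.80, adjusted p = 0.0107), and this call was lost without 48 h replicate 1 (adjusted p = 0.0644) and without 48 h replicate 2 (0.111). With limma Lefty1 was not called, on log2 CPM (adjusted p = 0.0601) or on the log2 deposited values (0.0839). The related Lefty2 was not called in edgeR, at 38.3 and 21.6 CPM at 48 h against 134.1 and 103.9 CPM at 24 h (adjusted p = 0.0695). Together 4 of 10 Nodal and activin genes fell, with Inhbb and Tdgf1 described above, while Fst and Acvr2b rose. Fst, which binds activin, had 53.7 and 48.9 CPM at 48 h against 19.4 and 10.3 CPM at 24 h (adjusted p = 0.00123, or 0.0523 without 24 h replicate 2), and no gene of this list was called higher without that library.

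In the FGF list 6 of 18 genes fell and 4 rose, 2 of them without 24 h replicate 2. Fgf4, the FGF that stem cells make for themselves, had 5.47 and 2.8 CPM at 48 h against 55.2 and 36.3 CPM at 24 h (log2 -3.40 ± 0.44, adjusted p = 2.3e-06). The ETS factors Etv4 and Etv5, targets of FGF signals through ERK, fell 11.5-fold and 3.89-fold. Etv4 had 3.26 and 2.06 CPM at 48 h against 22.6 and 41.0 CPM at 24 h (log2 -3.52 ± 0.44, adjusted p = 9.29e-07). The feedback inhibitor Spry4 had 5.86 and 3.09 CPM at 48 h against 47.3 and 50.7 CPM at 24 h (log2 -3.39 ± 0.39, adjusted p = 2.62e-07). Another feedback gene, Dusp6, gave 125.0 and 91.2 CPM at 48 h against 122.4 and 86.9 CPM at 24 h (adjusted p = 0.927), and the receptor gene Fgfr2 rose, with 451.2 and 460.7 CPM at 48 h against 206.1 and 190.3 CPM at 24 h (log2 1.20 ± 0.18, adjusted p = 1.06e-05).

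Within the retinoic acid pathway 1 of 4 clearance genes and 3 of 9 receptors and corepressors were called, against 19.5% of all genes tested. Cyp26b1, a cytochrome that degrades retinoic acid, had 151.8 and 96.1 CPM at 48 h against 30.5 and 28.1 CPM at 24 h (log2 2.08 ± 0.45, adjusted p = 0.00135). Cyp26a1 (chr19:37697808-37701536), its better known relative, had 322.7 and 277.2 CPM at 48 h against 275.1 and 265.8 CPM at 24 h (log2 0.15 ± 0.40, adjusted p = 0.845). The reductase Dhrs3 had 202.7 and 212.6 CPM at 48 h against 188.4 and 182.1 CPM at 24 h (adjusted p = 0.813), and Cyp26c1 was near 2 CPM or below in all but 1 library (adjusted p = 0.587). Cyp26b1 was thus the only one of the 4 clearance genes called.

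Of 9 receptors and corepressors 2 rose and 1 fell. Rarb (chr14:16430840-17082331), a receptor gene that is itself a retinoic acid target, had 385.6 and 406.7 CPM at 48 h against 185.0 and 184.7 CPM at 24 h (log2 1.10 ± 0.21, adjusted p = 0.000289). Its partner Rxra had 119.4 and 149.5 CPM at 48 h against 39.2 and 51.2 CPM at 24 h (log2 1.57 ± 0.26, adjusted p = 3.39e-05). Rarg, the receptor that is prominent in undifferentiated stem cells, had 20.5 and 20.5 CPM at 48 h against 72.5 and 76.3 CPM at 24 h (log2 -1.86 ± 0.21, adjusted p = 7.51e-08). Rara had 55.1 and 54.3 CPM at 48 h against 71.2 and 66.0 CPM at 24 h (adjusted p = 0.197). Rxrb, Rxrg, Nrip1 and Ncor1 were not called, with log2 fold changes of -0.40 to 0.38. Of 9 measured genes that make, bind or carry retinoids, 5 rose (median 0.88), 3 without 24 h replicate 2. Crabp1, which holds retinoic acid in the cytoplasm, had 40.4 and 33.7 CPM at 48 h against 7.35 and 3.43 CPM at 24 h (log2 2.77 ± 0.34, adjusted p = 2.98e-07). Stra6, the membrane transporter of retinol, had 122.3 and 126.7 CPM at 48 h against 51.7 and 66.1 CPM at 24 h (log2 1.08 ± 0.21, adjusted p = 0.000317).

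Rarb and Cyp26a1 are textbook genes with a retinoic acid response element near the start, and their promoters are shown for that reason. In 250 bases before the start of RefSeq transcripts (build GRCm38.p6), an exact repeat of AGGTCA with a spacing of 5 bases was found in 3 of 27025 promoters and one with a spacing of 2 bases in 2. The GATA-type letters AGATAA were in 11.4% of all promoters, 7.27% of those of genes tested, 6.78% of those of genes that rose at least 2-fold and 9.89% of those of genes that fell as much. Allowing each arm to start with A or G and then to read GGTCA or GTTCA, a set widened after the exact search, and reading both strands, found 28 (0.104%). Of promoters of genes tested 8 of 11971 (0.0668%) held one, as did 1 of 546 whose gene rose at least 2-fold (0.183%), that of Rarb, and 0 of 627 whose gene fell as much. The matches are a description of letters in these windows. The element is in capitals below, 53 to 37 bases before the start of a Rarb transcript on the reverse strand (chr14:16575477-16575726), which begins inside the longer span counted above. In Cyp26a1 it lies on the other strand, 32 to 16 bases before the start (chr19:37697558-37697807, forward strand).
Rarb: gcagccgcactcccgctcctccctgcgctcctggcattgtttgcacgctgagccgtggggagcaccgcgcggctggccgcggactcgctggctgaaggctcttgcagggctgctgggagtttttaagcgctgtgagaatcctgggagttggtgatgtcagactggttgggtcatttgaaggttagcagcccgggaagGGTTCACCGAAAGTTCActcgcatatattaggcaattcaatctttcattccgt
Cyp26a1: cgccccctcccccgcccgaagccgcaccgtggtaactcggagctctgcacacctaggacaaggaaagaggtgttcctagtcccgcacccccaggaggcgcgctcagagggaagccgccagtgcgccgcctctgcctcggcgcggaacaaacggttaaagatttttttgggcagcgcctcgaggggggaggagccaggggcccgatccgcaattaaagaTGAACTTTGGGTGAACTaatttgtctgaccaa

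The 4 Hox clusters differed in how many of their measured genes changed and by how much. In the Hoxd cluster all 4 tested genes rose, with a median log2 fold change of 3.64. Hoxc followed with 5 of 6 and a median of 2.35, Hoxb with 6 of 9 and 1.02, and Hoxa with 1 of 9 and 0.27, where 9.69% of all genes tested rose. Differences between clusters were not tested. None of the Hox genes tested fell. Without 24 h replicate 2, the counts of rises were 3 of Hoxd, 4 of Hoxc and 2 of Hoxb, and 3 Hoxb genes rose without 48 h replicate 2 and 3 without 24 h replicate 1. With limma on the log2 deposited values 1 Hoxb gene was called.

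Hoxd3 (chr2:74711993-74748271) had 79.7 and 73.3 CPM at 48 h against 3.03 and 4.21 CPM at 24 h, 21.1-fold higher (log2 4.40 ± 0.30, adjusted p = 6.69e-12). Hoxd4 had 25.9 and 23.1 CPM at 48 h against 0.864 and 1.4 CPM at 24 h (log2 4.43 ± 0.34, adjusted p = 2.53e-10), but it lies inside the span of Hoxd3 on the same strand, so the reads of the 2 are not separate. Hoxd1, at the 3′ end of the cluster, had 4.99 and 5.89 CPM at 48 h against 1.15 and 0.78 CPM at 24 h (log2 2.45 ± 0.54, adjusted p = 0.00155). Hoxd8 had 3.55 and 3.24 CPM at 48 h against 0.72 and 0.156 CPM at 24 h (adjusted p = 0.00291, or 0.0704 without 24 h replicate 2). The 48 h libraries of all 4 genes lay above those at 24 h, as they did in 31.7% of all genes tested. At 24 h none of the 4 exceeded 4.21 CPM.

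In the Hoxc cluster Hoxc4 had 19.4 and 20.6 CPM at 48 h against 5.62 and 4.06 CPM at 24 h (log2 2.04 ± 0.27, adjusted p = 1.88e-06). Hoxc5, which contains Mir615, had 23.2 and 19.9 CPM at 48 h against 5.04 and 3.74 CPM at 24 h (log2 2.29 ± 0.32, adjusted p = 5.1e-06). Towards the 5′ end the levels were lower and the fold changes as large, with Hoxc6 at 7.13-fold (adjusted p = 0.00033) and Hoxc8 at 6.8-fold (adjusted p = 1.26e-05). Hoxc9 had 2.98 and 4.41 CPM at 48 h against 1.01 and 0.312 CPM at 24 h (adjusted p = 0.00286, or 0.0818 without 24 h replicate 2). Hoxc13, the most 5′ gene measured, was at 0.864 and 1.03 CPM at 48 h against 0.432 and 1.4 CPM at 24 h (adjusted p = 0.974).

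Among Hoxb genes, whose enhancer the study deleted in the other clones, Hoxb3 (chr11:96323126-96347930) had 148.9 and 151.9 CPM at 48 h against 48.7 and 69.9 CPM at 24 h. This was a rise of 2.54-fold (log2 1.34 ± 0.18, adjusted p = 2.17e-06), the only Hoxb call kept under every alternative. Hoxb1, the most 3′ gene of the cluster, gave 35.9 and 53.3 CPM at 48 h against 34.9 and 51.6 CPM at 24 h (log2 0.04 ± 0.31, adjusted p = 0.952). Hoxb4 had 42.4 and 46.9 CPM at 48 h against 27.7 and 34.2 CPM at 24 h (adjusted p = 0.115), and Hoxb9 had 13.2 and 20.9 CPM at 48 h against 10.9 and 10.8 CPM at 24 h (adjusted p = 0.0511, or 0.0132 without 48 h replicate 1).

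Hoxb2, Hoxb5, Hoxb6, Hoxb7 and Hoxb8 were called at log2 fold changes of 0.97 to 1.34. Hoxb2 had 42.5 and 53.9 CPM at 48 h against 23.0 and 26.1 CPM at 24 h (adjusted p = 0.0153), and Hoxb6 had 20.7 and 23.4 CPM at 48 h against 9.22 and 8.11 CPM at 24 h (adjusted p = 0.00362). Hoxb5 and Hoxb6 both lie across Hoxb5os on the other strand. These 5 calls depended on single libraries. Without 24 h replicate 2 the adjusted p was 0.0629 for Hoxb2, 0.0996 for Hoxb5, 0.0539 for Hoxb6 and 0.0591 for Hoxb7. Without 48 h replicate 2 it was 0.14 for Hoxb2, 0.169 for Hoxb7 and 0.0929 for Hoxb8, and without 24 h replicate 1 it was 0.102, 0.255 and 0.0877 for the same 3 genes. Without 48 h replicate 1 it was 0.0705 for Hoxb7. Both 48 h libraries lay above both 24 h libraries in all 5, as they did in 31.7% of all genes tested.

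In the Hoxa cluster only Hoxa2, a hindbrain and branchial arch factor, was called, with 10.6 and 8.09 CPM at 48 h against 2.88 and 3.12 CPM at 24 h (log2 1.64 ± 0.30, adjusted p = 0.000154). Hoxa3, whose span holds Hoxa4, Hoxa5 and Hoxa6 on the same strand, had 76.4 and 70.9 CPM at 48 h against 59.1 and 63.3 CPM at 24 h (adjusted p = 0.437). The Hoxa cluster had been read at similar levels already at 24 h, with a sum of 164.3 and 142.4 CPM at 48 h against 121.6 and 121.1 CPM at 24 h.

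**Figure D2:**
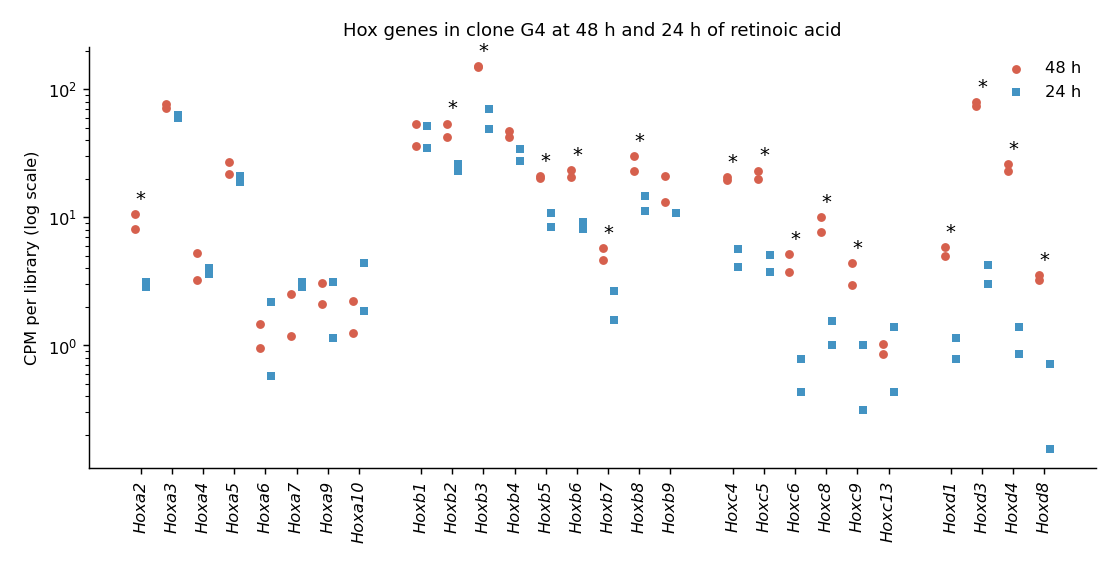
CPM of each library of clone G4 (log scale) for Hox genes tested, in cluster order; red circles are the 2 libraries at 48 h, drawn left of the blue squares for the 2 libraries at 24 h, and asterisks mark called genes. The times are widely separated for Hoxd and Hoxc genes, such as Hoxd3 at 79.7 and 73.3 CPM against 3.03 and 4.21 CPM, and coincide for Hoxb1.

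Partner proteins that help Hox factors bind DNA rose alongside. Meis1 (chr11:18880428-19018969) had 1153.6 and 1223.5 CPM at 48 h against 352.6 and 298.7 CPM at 24 h (log2 1.87 ± 0.22, adjusted p = 1.31e-07). Its relative Meis3 had 10.5 and 12.9 CPM at 48 h against 4.75 and 3.59 CPM at 24 h (log2 1.47 ± 0.27, adjusted p = 0.00012). In all 6 of 11 cofactor and Cdx genes rose and 1 fell (median 0.52), with 3 rises without 48 h replicate 2, 2 without 24 h replicate 1 and 2 without 24 h replicate 2. Cdx1, a caudal factor that acts upstream of Hox genes, was the gene that fell, with 6.72 and 3.83 CPM at 48 h against 14.7 and 19.8 CPM at 24 h (adjusted p = 0.00249, or 0.0583 without 48 h replicate 2). Cdx2 stayed at 2.02 CPM or below in every library.

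Transcription factors that pattern the neural tube rose in 16 of 28 genes tested and fell in 2, with a median log2 fold change of 1.44. The median was 1.40 with Fabp7, which had no read at 24 h, set at the bound of 3 reads, and 10 genes rose without 24 h replicate 2. Pax3 (chr1:78101267-78197136), a dorsal neural tube and neural crest factor, had 61.4 and 43.0 CPM at 48 h against 3.89 and 2.5 CPM at 24 h, 16.2-fold higher (log2 4.02 ± 0.29, adjusted p = 9.16e-12). Zic1, also dorsal, had 13.2 and 9.56 CPM at 48 h against 1.3 and 0.624 CPM at 24 h (log2 3.54 ± 0.43, adjusted p = 4.8e-07). Sox9, which neural crest and glial precursors use, had 6.34 and 4.12 CPM at 48 h against 0.576 and 0.312 CPM at 24 h (log2 3.51 ± 0.44, adjusted p = 9.37e-07). Dbx1, of the intermediate spinal cord, had 4.03 and 2.35 CPM at 48 h against 0.144 and 0.0 CPM at 24 h, 45.0-fold more reads (interval 7.76 to 1810, adjusted p = 0.00134).

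The general neural progenitor factors rose by less. Sox1 had 50.5 and 53.7 CPM at 48 h against 21.8 and 16.5 CPM at 24 h (log2 1.44 ± 0.29, adjusted p = 0.000426), with Sox1ot over it on the same strand. Pax6 had 87.7 and 110.1 CPM at 48 h against 33.7 and 39.6 CPM at 24 h (log2 1.43 ± 0.25, adjusted p = 9.18e-05), and Elp4 meets it on the other strand. Genes of neurons themselves were mixed, 5 of 28 higher and 6 lower (median -0.08), with 3 higher and 3 lower without 24 h replicate 2. Stmn2, a microtubule regulator of neurons, had 33.8 and 33.3 CPM at 48 h against 107.0 and 86.0 CPM at 24 h (log2 -1.52 ± 0.34, adjusted p = 0.00185). The tubulin of neurons, Tubb3, had 8.74 and 7.36 CPM at 48 h against 14.4 and 12.2 CPM at 24 h (adjusted p = 0.0331), and this call was lost with any 1 of the libraries left out (0.0612 to 0.229). Dcx, a marker of migrating neurons, was at 2.11 and 1.62 CPM at 48 h against 1.15 and 0.936 CPM at 24 h (adjusted p = 0.334).

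BMP pathway genes moved in a single direction. Of 15 tested 10 rose and none fell (median 1.05), with 6 rises without 24 h replicate 2, and the sum was 538.6 and 565.6 CPM at 48 h against 258.3 and 230.1 CPM at 24 h. The ligand gene Bmp7 had 71.0 and 60.0 CPM at 48 h against 20.2 and 16.5 CPM at 24 h (log2 1.84 ± 0.24, adjusted p = 1.12e-06). Id3, a helix-loop-helix inhibitor that BMP signals induce, had 60.9 and 63.7 CPM at 48 h against 14 and 8.27 CPM at 24 h (log2 2.48 ± 0.31, adjusted p = 6.89e-07). Bmp5 had 2.5 and 2.5 CPM at 48 h against 0.144 and 0.156 CPM at 24 h (16.7-fold more reads, interval 4.34 to 142, adjusted p = 0.000165). Bmp4, which meets Gm15217 on the other strand, had 27.9 and 26.2 CPM at 48 h against 14.8 and 10.6 CPM at 24 h (adjusted p = 0.00138, or 0.0534 without 24 h replicate 2).

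Several Wnt ligands and effectors rose. Of 16 ligands 6 rose and 2 fell (median 0.26), with 3 rises without 48 h replicate 1 and 3 without 24 h replicate 2, and with 4 falls without 24 h replicate 1. Of 18 effectors and feedback genes 9 rose and 1 fell (median 0.91), with 5 rises without 24 h replicate 2 and no fall without 48 h replicate 2 or without 24 h replicate 1. Wnt1, made in the dorsal midline of the neural tube, had 6.82 and 6.03 CPM at 48 h against 1.01 and 0.624 CPM at 24 h (log2 2.95 ± 0.54, adjusted p = 0.000274). Wnt8a, an early ligand, fell, with 2.78 and 4.56 CPM at 48 h against 17.7 and 13.3 CPM at 24 h (log2 -2.12 ± 0.37, adjusted p = 8.38e-05). The R-spondin gene Rspo2 had 11.4 and 14.9 CPM at 48 h against 1.01 and 0.936 CPM at 24 h (log2 3.72 ± 0.55, adjusted p = 6.59e-06). Axin2, a feedback inhibitor and standard readout of the pathway, had 52.3 and 45.9 CPM at 48 h against 20.3 and 16.4 CPM at 24 h (log2 1.42 ± 0.22, adjusted p = 1.41e-05).

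Gli1, a Hedgehog response gene, was lower at 48 h. This transcription factor gene, which meets Arhgap9, had 34.1 and 26.3 CPM at 48 h against 70.4 and 85.6 CPM at 24 h (log2 -1.36 ± 0.22, adjusted p = 2.28e-05). The ligand gene Shh was at 1.06 and 0.883 CPM at 48 h against 0.144 and 0.156 CPM at 24 h (adjusted p = 0.057). In the joint Hedgehog and Notch list 4 of 16 genes rose and 4 fell, with 2 rises without 48 h replicate 1 and 2 falls without 48 h replicate 2. Notch2 was among the rises, at 803.4 and 767.8 CPM at 48 h against 473.2 and 336.0 CPM at 24 h (log2 0.96 ± 0.20, adjusted p = 0.00076).

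**Figure D3:**
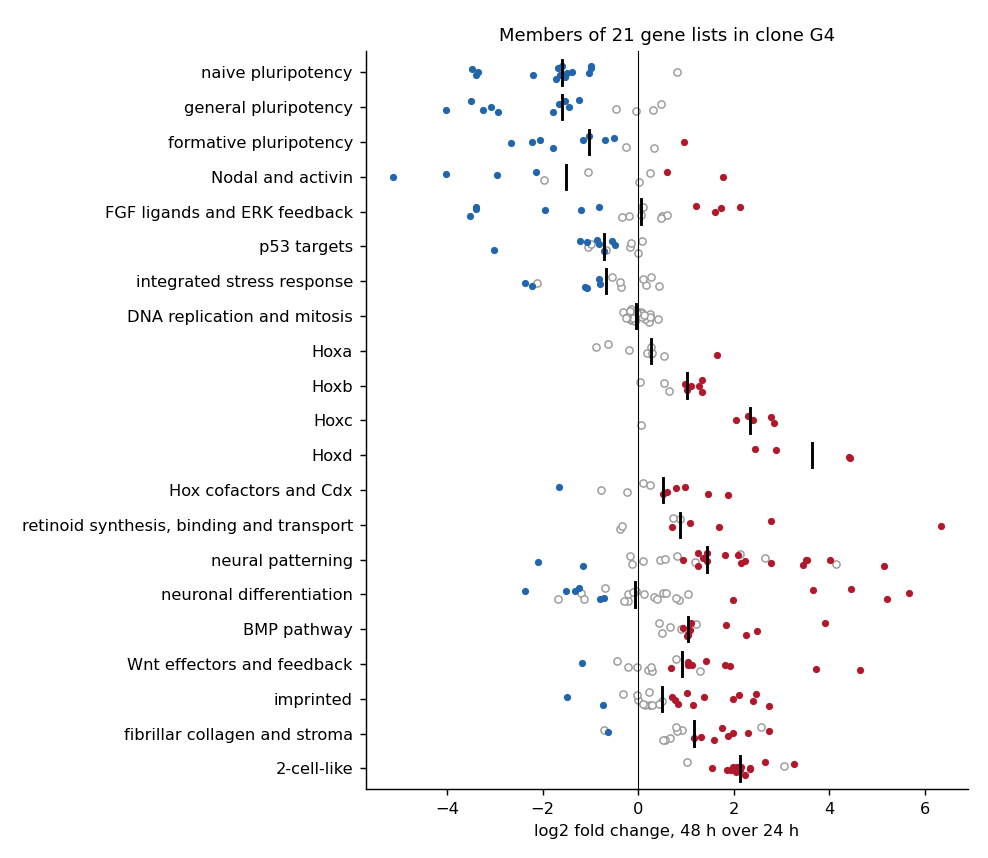
Log2 fold change, 48 h over 24 h, of the members of 21 gene lists in clone G4; each circle is a gene, filled red where called higher, filled blue where called lower and open where not called, and the black bar is the list median. Naive and general pluripotency lie at a median of -1.60, Hoxd at 3.64 and DNA replication and mitosis at -0.04.

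Markers of other lineages changed in part, where 19.5% of all genes tested were called, 9.69% higher and 9.85% lower. Among endoderm transcription factors 2 of 12 rose and none fell, no larger a share called than over all genes. Foxa2 had 6.62 and 4.56 CPM at 48 h against 1.01 and 0.936 CPM at 24 h (log2 2.52 ± 0.46, adjusted p = 0.00015), and Sox17 had 4.32 and 3.24 CPM at 48 h against 0.72 and 0.78 CPM at 24 h (log2 2.33 ± 0.52, adjusted p = 0.00123). Gata6, a regulator of primitive endoderm, had 15.7 and 18.2 CPM at 48 h against 7.06 and 13.4 CPM at 24 h (adjusted p = 0.0529, or 0.0104 without 24 h replicate 2). Gata4 had 4.32 and 7.65 CPM at 48 h against 8.07 and 7.96 CPM at 24 h (adjusted p = 0.506). The secreted yolk sac protein Afp had a single read in the 4 libraries.

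Of 16 basement membrane genes 4 rose (median 0.18). Lama1, the laminin alpha chain of early embryos, had 538.4 and 592.1 CPM at 48 h against 173.9 and 165.0 CPM at 24 h (log2 1.74 ± 0.21, adjusted p = 2.8e-07). The collagen IV genes Col4a1 and Col4a2 share a start region on opposite strands and rose 3.39-fold and 3.44-fold. Of 9 genes of visceral endoderm uptake and secretion 3 rose, 1 without 24 h replicate 1. Their median log2 fold change was 1.16, or 0.11 with Afp and Ttr, which had no read at 24 h, set at the bound of 3 reads. The call of Ttr, a carrier of retinol-binding protein, was lost without 24 h replicate 1 (adjusted p = 0.0535) and without 24 h replicate 2 (0.0573). Dab2, an endocytic adaptor, had 104.4 and 131.5 CPM at 48 h against 40.9 and 46.8 CPM at 24 h (log2 1.43 ± 0.19, adjusted p = 1.75e-06).

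Among 12 mesoderm genes 5 rose and 1 fell, with only 1 rise without 48 h replicate 1, and 3, 2 and 2 without 48 h replicate 2, 24 h replicate 1 and 24 h replicate 2. DESeq2 called 2 rises, limma on log2 CPM 4 and limma on the log2 deposited values 3. The sum over the 12 genes overlapped between the times, at 37.6 and 33.0 CPM at 48 h against 34.1 and 39.5 CPM at 24 h. Hand2 had 3.84 and 5.15 CPM at 48 h against 0.288 and 0.156 CPM at 24 h (19.4-fold more reads, interval 6.39 to 96.2, adjusted p = 9.43e-06). The streak gene T was at 1.4 CPM or below in every library. Tcf15, a paraxial mesoderm factor that stem cells also express, had 4.51 and 3.53 CPM at 48 h against 17.6 and 22.5 CPM at 24 h (log2 -2.29 ± 0.29, adjusted p = 4.19e-07). In the trophoblast list 4 of 10 rose and 1 fell, a fall lost without 24 h replicate 1. Those that rose included Tfap2b, Tfap2a and Gata3, which neural crest or other ectoderm also express, and Gata3 had 12 and 14.9 CPM at 48 h against 5.33 and 2.03 CPM at 24 h (log2 1.84 ± 0.34, adjusted p = 0.000144).

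The switch from E- to N-cadherin that accompanies neural and mesenchymal fates was visible in nuclear RNA. Cdh1 (E-cadherin) had 368.4 and 313.9 CPM at 48 h against 848.8 and 682.3 CPM at 24 h (log2 -1.17 ± 0.22, adjusted p = 0.000233). Cdh2 (N-cadherin) had 1425.7 and 1266.0 CPM at 48 h against 399.0 and 302.6 CPM at 24 h (log2 1.94 ± 0.31, adjusted p = 4.29e-05). Cdh11, a mesenchymal cadherin, rose 4.55-fold, and the epithelial splicing factor Esrp1 and the adhesion molecule Epcam fell 3.07-fold and 2.05-fold. Over all 15 genes of this list 4 rose and 3 fell.

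Fibrillar collagen and stromal genes rose in 8 of 17 cases and fell in 1 (median 1.16), with 4 rises without 24 h replicate 2 and no fall without 48 h replicate 2 or without 24 h replicate 1. The sum over the 17 genes overlapped between the times, at 2326.1 and 2087.2 CPM at 48 h against 2436.6 and 1885.9 CPM at 24 h. Col3a1 had 71.2 and 55.2 CPM at 48 h against 11.1 and 7.8 CPM at 24 h (log2 2.74 ± 0.44, adjusted p = 5.03e-05). Igf2, an imprinted growth factor gene with Igf2os on the other strand, had 264.8 and 226.5 CPM at 48 h against 74.9 and 49.5 CPM at 24 h (log2 1.98 ± 0.22, adjusted p = 7.84e-08). The type I collagen gene Col1a1 was not called, at 144.4 and 129.2 CPM at 48 h against 90.8 and 53.4 CPM at 24 h (adjusted p = 0.134). Contractile genes had their lowest sum in 24 h replicate 2, with 1367.1 and 1049.7 CPM at 48 h against 944.4 and 564.2 CPM at 24 h. Of the 13 genes 3 rose, 1 without that library, 1 without 48 h replicate 1 and 6 without 24 h replicate 1.

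Immediate early genes, which respond within minutes to serum or handling, followed the same library. Fos had 9.5 and 8.68 CPM at 48 h against 9.94 and 1.25 CPM at 24 h, and Egr1 had 50.8 and 42.4 CPM at 48 h against 86.0 and 9.52 CPM at 24 h. The sum over 15 such genes was 360.0 and 309.3 CPM at 48 h against 397.2 and 159.1 CPM at 24 h, and none was called, with 3 higher without 24 h replicate 1 and 1 lower without 24 h replicate 2. The part of this library in the changes of contractile and stromal genes was not tested beyond leaving it out.

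Imprinted genes, which are read from 1 parental copy and often act on growth, rose in 11 of 23 cases and fell in 2 (median 0.49), with 7 rises without 24 h replicate 2. Peg3 (chr7:6705960-6730419), a zinc finger gene of the paternal copy, had 820.1 and 752.2 CPM at 48 h against 176.9 and 118.7 CPM at 24 h, 5.32-fold higher (log2 2.41 ± 0.21, adjusted p = 4.9e-10). Plagl1, which regulates other imprinted genes, had 295.2 and 228.1 CPM at 48 h against 50.4 and 28.5 CPM at 24 h (log2 2.73 ± 0.25, adjusted p = 1.41e-09). Hymai, which rose 5.56-fold, lies inside Plagl1 on the same strand. Dlk1, a Notch-like protein, had 41.3 and 38.8 CPM at 48 h against 9.51 and 9.05 CPM at 24 h (log2 2.11 ± 0.33, adjusted p = 2.07e-05).

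Airn, the noncoding RNA that runs antisense through the start of Igf2r, had 265.1 and 262.1 CPM at 48 h against 65.5 and 67.1 CPM at 24 h (log2 1.99 ± 0.28, adjusted p = 4.13e-06). Igf2r had 670.1 and 569.6 CPM at 48 h against 576.8 and 435.9 CPM at 24 h (adjusted p = 0.36). Their spans meet on opposite strands, and whether counting used strand is not given in the sources used here. Meg3 and Kcnq1ot1, further imprinted noncoding RNAs, were not called (adjusted p = 0.563 and 0.775).

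Among enzymes that act on DNA methylation the TET oxidases moved apart. Tet1 (chr10:62804570-62880014) had 137.9 and 132.1 CPM at 48 h against 842.7 and 775.3 CPM at 24 h, 5.99-fold lower (log2 -2.58 ± 0.22, adjusted p = 4.75e-10). Tet3 had 176.3 and 162.0 CPM at 48 h against 79.7 and 68.8 CPM at 24 h (log2 1.19 ± 0.17, adjusted p = 4.32e-06), with the small gene Mir6374 inside it. The maintenance methyltransferase Dnmt1 had 309.4 and 273.8 CPM at 48 h against 265.1 and 265.2 CPM at 24 h (adjusted p = 0.504). The cytidine deaminase gene Apobec1 fell, with 3.84 and 4.12 CPM at 48 h against 20.3 and 20.1 CPM at 24 h (log2 -2.35 ± 0.27, adjusted p = 9.09e-08).

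Of 19 Polycomb and H3K27 demethylase genes 4 rose and 4 fell (median -0.09), counts that were 2 and 2 without 48 h replicate 1 and without 48 h replicate 2, and 2 and 3 without 24 h replicate 1. Jarid2, a subunit of PRC2 that is abundant in stem cells, had 565.6 and 519.4 CPM at 48 h against 1127.8 and 1466.7 CPM at 24 h (log2 -1.26 ± 0.21, adjusted p = 4.27e-05). The catalytic subunit Ezh2 had 273.4 and 259.7 CPM at 48 h against 192.9 and 215.1 CPM at 24 h (log2 0.39 ± 0.14, adjusted p = 0.0516), a value called under 9 of the alternatives tried. Cohesin genes changed little. Rad21 and the boundary protein gene Ctcf had log2 fold changes of -0.08 and 0.03, and 1 of 16 genes of the list fell, or none without 48 h replicate 2 or without either 24 h library.

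None of 28 genes of DNA replication and mitosis was called (median -0.04), where edgeR called 19.5% of all genes. DESeq2 and limma called none either. Mki67 had 693.5 and 819.0 CPM at 48 h against 886.1 and 749.3 CPM at 24 h (adjusted p = 0.701), and Top2a had 395.7 and 330.0 CPM at 48 h against 381.9 and 354.7 CPM at 24 h (adjusted p = 0.937). The cyclin-dependent kinase inhibitor Cdkn1a had 27.1 and 18.2 CPM at 48 h against 27.2 and 25.3 CPM at 24 h (adjusted p = 0.659).

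Cdkn1a is also a p53 target, although not in the list of 15 other such targets, of which 8 fell and none rose (median -0.71), 4 without 48 h replicate 2 and 4 without 24 h replicate 1. Trp73, a relative of p53, had 1.06 and 1.62 CPM at 48 h against 7.2 and 14 CPM at 24 h (log2 -3.02 ± 0.39, adjusted p = 8.04e-07). Eda2r, a death-receptor family gene, had 87.3 and 69.9 CPM at 48 h against 191.2 and 172.2 CPM at 24 h (log2 -1.21 ± 0.23, adjusted p = 0.000218). Genes of the integrated stress response fell in 6 of 14 cases (median -0.67), 3 without 48 h replicate 2 and 2 without 24 h replicate 1. Psat1, of serine synthesis, had 51.8 and 40.6 CPM at 48 h against 106.3 and 89.1 CPM at 24 h (log2 -1.07 ± 0.22, adjusted p = 0.000556).

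Genes of the rare 2-cell-like state of stem cell cultures rose, 13 of 15 tested (median 2.12), and 9 to 13 did so with 1 library left out. Zscan4d had 64.7 and 93.1 CPM at 48 h against 10.8 and 14.2 CPM at 24 h (log2 2.66 ± 0.31, adjusted p = 1.48e-07), and Zscan4f had 18.2 and 25.2 CPM at 48 h against 3.75 and 4.84 CPM at 24 h (log2 2.33 ± 0.38, adjusted p = 2.55e-05). The sum over the list was 219.5 and 276.0 CPM at 48 h against 43.2 and 65.8 CPM at 24 h. Members of these multicopy families are nearly identical, so counts of single genes are uncertain and 13 rises are not 13 independent genes.

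The remaining lists are described next, where 19.5% of all genes tested were called. Germline genes had 1 rise and 2 falls among 13, with Ddx4 at 16 and 19 CPM at 48 h against 14.5 and 16.7 CPM at 24 h (adjusted p = 0.688). Endothelial and blood genes had 2 falls among 9, 1 of them Pecam1, an adhesion molecule that undifferentiated stem cells also express, with 27.7 and 18.5 CPM at 48 h against 136.7 and 133.2 CPM at 24 h (log2 -2.53 ± 0.31, adjusted p = 5.27e-07). Muscle genes had 1 rise and 1 fall among 7, and the fall was Ttn, with 17.6 and 15.4 CPM at 48 h against 179.5 and 163.6 CPM at 24 h (log2 -3.37 ± 0.37, adjusted p = 1.72e-07). In mesothelial genes 1 of 7 rose and 2 fell, and none was called without 24 h replicate 2. The germline counts, the second endothelial fall and the muscle rise each changed with single libraries left out, with 1 endothelial fall without either 48 h library or without 24 h replicate 1 and no muscle rise without 48 h replicate 1 or without 24 h replicate 2. Of 24 hypoxia and glycolysis genes 3 fell, 5 without 24 h replicate 2, among them the kinase Pdk1, 2.28-fold lower. Of 10 nuclear noncoding RNAs 3 fell, and none of those falls remained without 48 h replicate 1 or without 24 h replicate 2. Malat1 was not called, at 3613.8 and 4036.4 CPM at 48 h against 3644.7 and 3125.1 CPM at 24 h (adjusted p = 0.558). In the aryl hydrocarbon receptor list Cyp1b1, which also oxidises retinoids, had 389.9 and 368.3 CPM at 48 h against 69.1 and 29.6 CPM at 24 h (log2 2.94 ± 0.27, adjusted p = 3.1e-09), while the more specific target Cyp1a1 was at 1.01 CPM or below throughout.

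Placed in the G4 course, which ran from 0 h to 74 h, most genes that rose or fell at least 2-fold had at 48 h their highest or lowest mean up to that time. Of the 773 genes that rose at least 2-fold, 763 (98.7%) had a 48 h mean above that of every earlier time, and 106 (13.7%) had not exceeded their 0 h mean at 24 h. Of the 882 that fell as much, 802 (90.9%) had a 48 h mean below that of every earlier time, while 342 (38.8%) had not yet fallen below their 0 h mean at 24 h. These counts are descriptions, since the genes were chosen by 2 of the times. Pax3 averaged 0.828 CPM at 0 h, 2.82 CPM at 6 h, 3.19 CPM at 24 h, 52.2 CPM at 48 h and 343.5 CPM at 74 h. Gpc3 reached its plateau within the step, with 544.7 CPM at 24 h, 2410.4 CPM at 48 h and 2325.6 CPM at 74 h. Tet1 had declined since the start, with 2533.2 CPM at 0 h, 1765.7 CPM at 6 h, 809.0 CPM at 24 h, 135.0 CPM at 48 h and 105.5 CPM at 74 h. Etv4, by contrast, had 60.6 CPM at 0 h and 59.9 CPM at 6 h before its 31.8 CPM at 24 h and 2.66 CPM at 48 h. Cyp26a1 averaged 270.5 CPM at 24 h and 300.0 CPM at 48 h and then 78.9 CPM at 74 h.

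**Figure D4:**
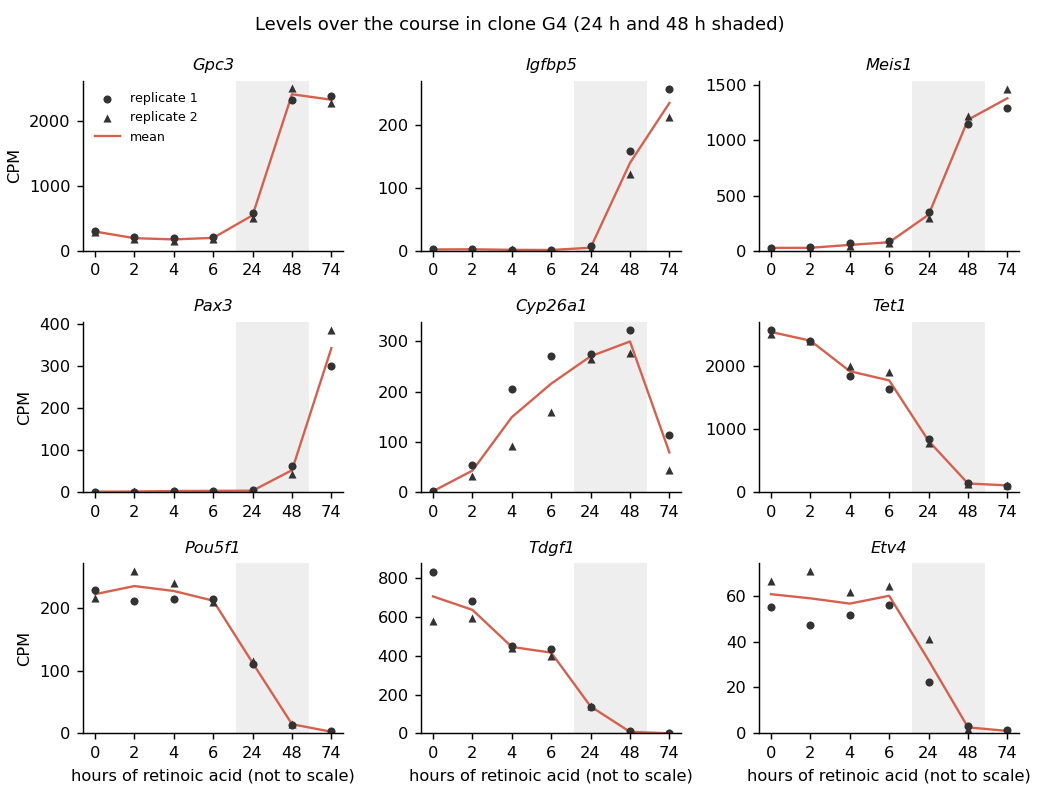
CPM (vertical axis, from 0) of 9 genes in clone G4 at 7 times from 0 h to 74 h of retinoic acid (horizontal axis, not to scale), with circles for replicate 1, triangles for replicate 2 and a red line through the means; 24 h and 48 h are shaded. Gpc3, Igfbp5, Meis1 and Pax3 rise after 24 h, while Tet1, Pou5f1, Tdgf1 and Etv4 reach low levels by 48 h, as with 135.0 CPM for Tet1.

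The same step was tested in the other cells. Between 24 h and 48 h the deletion clones gave 3505 calls in E3 (22.0%; 11.9% higher, 10.2% lower) and 3661 in H12 (23.0%; 12.8% higher, 10.3% lower), and total RNA of E14 gave 3404 (22.6% of 15061 genes tested there; 11.1% higher, 11.5% lower). Single libraries moved the counts, to 1674 in E3 without its 48 h replicate 1, 1752 in E3 without its 24 h replicate 2 and 2301 in H12 without its 24 h replicate 2. Of the 1541 G4 rises, 1087 were also called higher in E3 (70.5% of the G4 calls, 57.6% of those of E3) and 1109 in H12 (72.0% and 54.7%). Of the 1566 G4 falls, 999 were called lower in E3 (63.8% and 61.8%) and 995 in H12 (63.5% and 60.9%). Calls of opposite sign numbered 1 in E3 and 8 in H12, and in E14 2 of the rises and 5 of the falls. In total RNA of E14, 780 of 1467 G4 rises tested there (53.2%, or 46.8% of the E14 rises) and 631 of 1497 falls (42.2%, or 36.7%) were called in the same direction. E14 differs from the clones in RNA fraction and in counting exons alone, so the 2 sets are not compared in size.

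A direct test of whether the step differed between G4 and the mean of the deletion clones called 0 of 15896 genes (0.0%) in edgeR, with a lowest adjusted p of 0.122 and 670 genes at an unadjusted p under 0.05 (4.21%). DESeq2 called 6 and limma none, and 7 were called without 24 h replicate 2 of G4 and 7 without 48 h replicate 2 of E3. A call in G4 that is missing in a deletion clone is thus not shown to be particular to G4. Replicates at 48 h correlated at r = 0.9756 in E3 and 0.9865 in H12, against 0.9928 in G4. At 24 h the values were 0.9876 in E3, 0.9906 in H12 and 0.9884 in G4. How large a difference the direct test could find was not tested. The Hoxb genes beside the deleted enhancer moved as follows. Hoxb3 changed by a log2 fold of 1.34 in G4, 1.35 in E3, 1.17 in H12 and 0.78 in E14, and Hoxb1 by 0.04, -0.01, 0.36 and 1.01 in the same order. For Hoxd3 the values were 4.40 in G4, 3.76 in E3, 3.63 in H12 and 3.17 in E14. Pou5f1 changed by -2.94 in G4, -2.32 in E3, -2.29 in H12 and -1.70 in E14, and Inhbb by -5.13, -4.19, -3.34 and -3.13. Lgr5 changed by 4.64 in G4, 3.81 in E3 and 3.99 in H12, and by 1.15 in E14, where it was not called (adjusted p = 0.176).

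**Figure D5:**
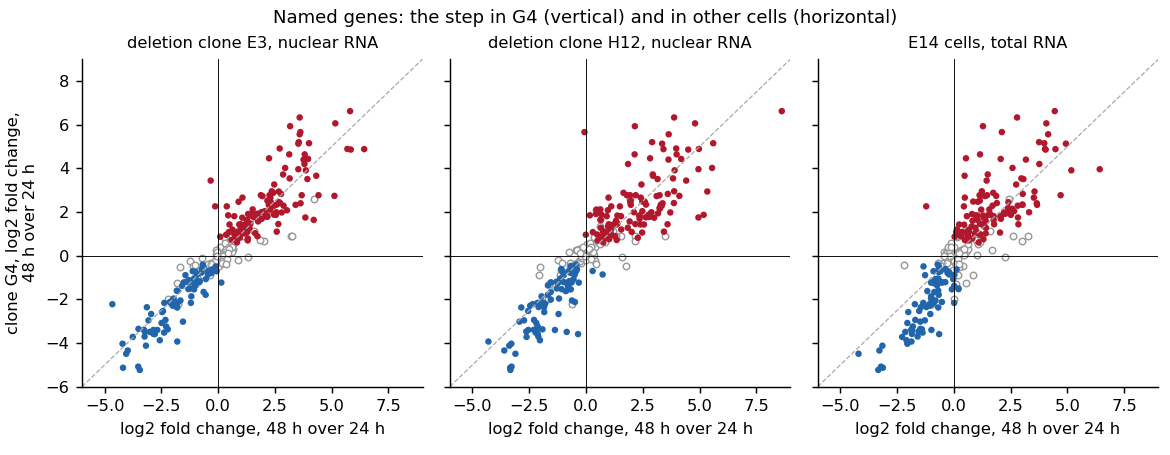
Log2 fold change, 48 h over 24 h, of the named genes in clone G4 (vertical axis) against the same step in deletion clone E3, deletion clone H12 and E14 total RNA (horizontal axes); filled circles are called in G4 (red higher, blue lower), open circles are not called in G4, and the dashed line marks equal values. Many of these genes were chosen for their size in G4, which favours values far from 0 on the vertical axis. Lgr5 lay at 4.64 in G4 and 1.15 in E14, and the cause of this gap was not tested.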

How the data were processed

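Nuclear RNA of clones and total RNA of E14 cells was sequenced with Drosophila SG4 cells added, per the labels' protocols. STAR, Bowtie2, SAMtools and DESeq2 and the builds mm10 and dm6 are named in the submitters' processing notes, without versions. The counting program and its use of strand are not given in the sources used here. The deposited signal values are gene counts that the authors divided by 1 size factor for each library. Whole reads were recovered from them (100% of values within 0.1 read), so the count test replaced a log-scale one. In the clone table all 3746 sets of transcripts with one span had equal reads, against 663 of 3747 in E14, so introns are counted in the clones. The Drosophila reads were not analysed here.

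The transcript with most reads stood for each symbol, and 81 unnamed transcripts (0.0081% of clone reads) and 25 other per-sample columns were left out. Reads were fitted with edgeR 4.0.16 (robust quasi-likelihood, TMM, filterByExpr) in R 4.3.3 with 1 mean for each group, over 42 clone libraries and, separately, 25 E14 libraries. The SE is the fold change over the root of the F statistic, an approximation. Alternatives used DESeq2 1.42.0, limma 3.58.1, other scalings, filters and transcripts, fewer libraries and a replicate block. Counts of this comparison were simulated (15317 genes fitted) with changes placed in 200 genes averaging at least 5 CPM. Of these changes edgeR recovered 20.9% at 1.5-fold, 76.1% at 2-fold and 100% at 4-fold. These shares may not hold in the data, where 3107 genes were called, some of them below that level. Intervals of read ratios cover counting error only.

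The comparison, the gene lists and their members were chosen with earlier results of these data known. Named genes include the 12 steepest rises and falls among called genes. These 12 had to average at least 5 CPM in the higher group and to have libraries that did not overlap between the times. Also named are the 5 called genes with most reads in each direction, and all Hox, clearance and receptor genes. Up to 4 called members and the defining members of each other list complete the set. The defining members were picked after their values were seen, as were Acvr2b, Cdx2, Cyp1a1, Dcx, Dppa3, Dusp6, Fabp7, Kcnq1ot1, Lin28a, Lin28b, Meg3, Rad21 and Sall4. Some genes are not reported here.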

Additional observations from a re-analysis of the deposited data

How the results depend on the processing

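For G4 at 48 h against 24 h, the alternatives other than leaving out a library and the replicate block gave 2836 to 3504 calls, against 3107. Leaving out 1 library gave 1722 to 2299 calls, and 1209 to 1545 of at least 2-fold. For the difference between G4 and the deletion clones, DESeq2 called 6 genes and leaving out 1 library 0 to 7. The step in E3 gave 1440 calls with only the groups compared, and 1674 to 4725 with 1 library left out, that of H12 gave 2301 to 2934 and that of E14 gave 2473 to 3530. Fits on fewer libraries estimate the spread from fewer samples.

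Same-numbered G4 libraries deviated together only in part (correlation 0.252 for 24 h and 48 h, 0.0834 to 0.454 over 21 pairs of times), and the labels tie no number to a shared culture or day, so the libraries share only a number. With the replicate block, 4009 genes were called in G4 (1765 of at least 2-fold), 30 for the difference between G4 and the deletion clones (2 higher, 28 lower), 4581 in E3, 4565 in H12 and 3831 in E14.

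Of 202 named genes called, 128 kept call and direction under every alternative and 74 lost the call under at least 1. Of 66 not called, 17 were called under at least 1. Egr1 had a log2 fold change of -0.04, against 2.32 without 24 h replicate 1 (adjusted p = 0.00778) and -0.88 without 24 h replicate 2, and the cause was not tested. How depth limits calls at each level of expression was not tested.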
